A study of Mus musculus with 12 samples.

Results

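The RNA of 6 genes of the purinergic and adenosine pathway was followed in mouse regulatory T cells (Treg) with and without the transcription factor Ikaros, before and after stimulation through CD3 and CD28. The genes were Entpd1, Nt5e, Ada, Adora2a, P2rx7 and P2rx4. They were taken by name, as 6 of the 36222 genes in the deposited expression table, and each name had a single identifier. Treg were sorted as YFP+ cells from CD4+ cells of the spleens of individual, age-matched young mice. Wild-type (WT) mice carried the Foxp3-IRES-YFP-Cre allele, which expresses YFP and the Cre recombinase in cells that express Foxp3. Conditional knockout (cKO) mice carried the same Cre with Ikzf1-fl/fl, the floxed gene of Ikaros, so that both genotypes shared the Cre and the deletion was directed to Treg. Cells of each genotype were taken ex vivo without stimulation, or after 4 h with plate-bound antibodies to CD3 and CD28, at 1 µg/ml each, which engage the T cell receptor and its costimulatory receptor. This gave 4 groups of 3 libraries, named by genotype as WT or cKO and by condition as ex vivo or stimulated. No group was cultured for 4 h without the antibodies, so the effect of culture and that of CD3 and CD28 engagement cannot be told apart, and "stimulation" stands for both.

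ATP released by stressed or activated cells acts on P2X and P2Y receptors. The ectoenzyme CD39, encoded by Entpd1, converts ATP and ADP to AMP, and CD73, encoded by Nt5e, converts AMP to adenosine, which signals through the A2A receptor encoded by Adora2a and is broken down by adenosine deaminase, encoded by Ada. Mouse Treg are known for carrying both ectoenzymes, and making adenosine is one of the ways in which they restrain other T cells, while ATP acting on P2rx7, an ATP-gated cation channel, can impair or kill them.

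In these libraries, the RNA of P2rx7 fell most of the 6 genes from ex vivo to stimulated cells, to 0.324 of its ex vivo level in WT and 0.371 in cKO, and Entpd1 fell as well, to 0.548 and 0.671. In stimulated cells Entpd1 stood 1.57-fold higher in cKO than in WT. Nt5e and Adora2a were the most abundant of the 6 genes in every group. Nt5e, Ada and P2rx4 passed the test in no comparison. The folds are of the fitted values, log2(scaled TPM + 1), where TPM is a transcript's share of the library's RNA per length and the scaling corrects for differences in RNA composition, and a gene was called when the p-value of limma, adjusted by Benjamini-Hochberg over the 13318 genes tested, was under 0.05.

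Ex vivo, 1 of the 6 genes was called between genotypes (P2rx7, lower in cKO), against 5.29% of all genes tested, 3.62% higher and 1.67% lower. After stimulation 1 of 6 was called (Entpd1, higher in cKO), against 6.93%, of which 3.30% were higher and 3.63% lower. The stimulation effect was called for 3 of 6 in WT (Adora2a higher, Entpd1 and P2rx7 lower), against 32.0% of all genes, 12.7% higher and 19.3% lower. In cKO it was called for 2 of 6 (Entpd1 and P2rx7 lower), against 43.8%, 17.3% higher and 26.5% lower. With 6 genes, these counts are a description of the list. The difference between the stimulation effects of the 2 genotypes, the interaction, was called by limma for 0 of 6 genes, against 1.10% (0.451% higher and 0.653% lower), with 1 gene at an unadjusted p under 0.05, and limma-voom on the recovered reads also called 0. The median change of the 6 genes was 0.15 (log2) for genotype ex vivo, -0.08 for genotype after stimulation, 0.10 for stimulation in WT and -0.01 for stimulation in cKO, beside -0.01, -0.03, 0.00 and -0.01 for all genes tested.

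The 6 genes lie on 5 chromosomes, with positions from GENCODE vM1 on NCBIM37 (mm9). Entpd1 (ENSMUSG00000048120) spans chr19:40686856-40816092 on the plus strand, Nt5e (ENSMUSG00000032420) chr9:88222447-88266927 on the plus strand and Adora2a (ENSMUSG00000020178) chr10:74779688-74797533 on the plus strand. Ada (ENSMUSG00000017697) spans chr2:163552320-163575975 on the minus strand. P2rx7 (ENSMUSG00000029468, chr5:123093920-123141441) and P2rx4 (ENSMUSG00000029470, chr5:123157593-123179747) are neighbours on the plus strand, 16151 bp apart. The only protein-coding gene model between them is Gm10064, on the opposite strand, and genes of other types were not sought there. No exon of another annotated gene overlapped an exon of the 6 genes. Inside the span of Entpd1 lie 2 pseudogenes on its own strand, Gm16027 and Gm8783, whose exons do not overlap its exons.

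The promoters of Entpd1 and P2rx7 are shown because these 2 genes fell with stimulation in both genotypes, and that of P2rx4 because it is the neighbour of P2rx7 and was not called. The sequences are from RefSeq on GRCm38.p6, a later build than the one above, and run from 250 bases before to 50 bases after an annotated start, 5′ to 3′. The table held 7 promoters of 5 of the 6 genes, and Adora2a was not among them. Capitals mark GGGAA, the core of the Ikaros motif that the study discusses, and AGGAA, the motif it used for Ikaros footprints, with their reverse complements TTCCC and TTCCT; overlapping matches were counted separately.
Entpd1 promoter 1, chr19:40612116-40612415, plus strand: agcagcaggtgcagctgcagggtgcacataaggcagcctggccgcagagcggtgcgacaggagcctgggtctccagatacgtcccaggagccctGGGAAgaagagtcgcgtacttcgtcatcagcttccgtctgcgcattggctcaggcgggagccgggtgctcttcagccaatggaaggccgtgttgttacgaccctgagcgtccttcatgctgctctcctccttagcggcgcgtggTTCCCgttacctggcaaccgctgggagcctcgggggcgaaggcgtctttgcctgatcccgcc
Entpd1 promoter 2, chr19:40659520-40659819, plus strand: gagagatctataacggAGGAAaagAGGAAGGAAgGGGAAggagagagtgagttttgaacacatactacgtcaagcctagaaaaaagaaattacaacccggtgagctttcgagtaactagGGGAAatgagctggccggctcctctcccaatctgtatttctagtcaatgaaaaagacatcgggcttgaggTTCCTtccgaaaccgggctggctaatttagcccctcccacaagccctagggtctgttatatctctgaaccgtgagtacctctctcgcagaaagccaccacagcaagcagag
P2rx7 promoter 1, chr5:122643677-122643976, plus strand: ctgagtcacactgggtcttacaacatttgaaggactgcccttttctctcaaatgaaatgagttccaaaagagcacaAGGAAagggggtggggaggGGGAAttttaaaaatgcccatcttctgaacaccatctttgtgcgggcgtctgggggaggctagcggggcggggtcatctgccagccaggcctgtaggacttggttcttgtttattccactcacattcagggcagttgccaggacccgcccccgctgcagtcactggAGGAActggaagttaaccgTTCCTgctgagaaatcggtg
P2rx7 promoter 2, chr5:122650133-122650432, plus strand: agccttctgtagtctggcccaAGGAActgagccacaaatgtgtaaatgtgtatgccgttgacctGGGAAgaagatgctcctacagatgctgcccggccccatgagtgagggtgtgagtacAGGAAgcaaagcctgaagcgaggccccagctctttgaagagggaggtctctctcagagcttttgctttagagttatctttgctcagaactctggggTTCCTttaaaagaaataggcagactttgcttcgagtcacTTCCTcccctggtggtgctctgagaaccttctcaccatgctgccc
P2rx4 promoter 1, chr5:122707294-122707593, plus strand: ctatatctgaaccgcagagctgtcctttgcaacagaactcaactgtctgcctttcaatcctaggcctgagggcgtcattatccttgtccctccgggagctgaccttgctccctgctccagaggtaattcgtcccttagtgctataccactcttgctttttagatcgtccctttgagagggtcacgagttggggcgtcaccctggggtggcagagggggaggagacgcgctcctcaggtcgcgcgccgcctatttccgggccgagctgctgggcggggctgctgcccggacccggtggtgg

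Over both strands, GGGAA occurred in 62.7% and AGGAA in 66.7% of the 32851 promoters of this length in the table, so that a match is common. Entpd1 promoter 1 held 2 matches of GGGAA and 0 of AGGAA, and Entpd1 promoter 2 held 2 and 4, where a pair of the AGGAA matches overlapped by 1 base. P2rx7 promoter 1 held 1 match of GGGAA and 3 of AGGAA, and P2rx7 promoter 2 held 1 and 4. The P2rx4 promoter held 0 of either, the Nt5e promoter 1 match of GGGAA and 0 of AGGAA, and the Ada promoter 2 and 1. A match describes the letters of a window and is no measurement of binding.

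Between 8208659 and 20247649 reads per library were assigned to genes. Ikzf1 RNA checked the genotype labels, and its mean fell from 104.9 to 41.9 TPM ex vivo and from 74.8 to 25.2 TPM after stimulation, with no overlap of libraries, so that the cKO libraries still held Ikzf1 RNA. The 5 Treg markers, among them Foxp3 at group means of 117 to 192 TPM, were present in all groups, but moved with stimulation. Ctla4 fell by 1.85 (log2) in WT and 1.38 in cKO (limma adjusted p 2.9e-06 and 1.2e-05). Tnfrsf18 rose by 0.79 and 0.58 (limma adjusted p 0.00199 and 0.00897). Foxp3 fell by 0.66 in WT (limma adjusted p 0.0145), with 0.42 in cKO (limma adjusted p 0.0734). Ikzf2 fell by 0.50 in cKO (limma adjusted p 0.0131), with 0.09 in WT. All 4 CD4 T cell markers fell, with changes of -0.52 to -1.35 in WT and -0.77 to -2.04 in cKO. The 5 genes listed for T cell stimulation did not move one way. Egr2, an early gene of T cell receptor signalling, rose by 1.48 (log2, SE 0.15, limma adjusted p 5.12e-05) with stimulation in WT and by 1.31 (SE 0.15, limma adjusted p 9.22e-05) in cKO. Myc rose by 0.61 and 0.64 (limma adjusted p 0.0113 and 0.00703). Il2ra rose in cKO by 0.65 (limma adjusted p 0.00583), with -0.15 in WT (limma adjusted p 0.476). The early gene Nr4a1, which already stood at a mean of 975 TPM in WT ex vivo and 655 TPM in cKO ex vivo, fell in WT by 0.55 (limma adjusted p 0.0307), with 0.16 in cKO (limma adjusted p 0.464). Egr1, another early gene, fell in cKO by 0.69 (limma adjusted p 0.0404), with -0.58 in WT (limma adjusted p 0.0964). A single gene model, Gm10800, took 17.65% to 55.88% of the TPM of a library, more in stimulated than in ex vivo groups on average, and a larger share of it leaves less of the fixed total to every other gene. Changes are therefore given on scaled TPM, with the deposited TPM beside them. The WT ex vivo 3 library held 179 TPM of Xist, against at most 1.36 TPM in the others, and 0.097 TPM of the Y-linked gene Ddx3y, the pattern of a female, and results that turn on it are also given without it. In these bulk samples, fewer cells that express a gene cannot be told apart from less of its RNA per cell.

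The order of the 6 genes by mean TPM, which is per transcript length, was Nt5e, Adora2a, P2rx7, Entpd1, P2rx4 and Ada in both ex vivo groups and in cKO stimulated, while in WT stimulated P2rx4 stood before Entpd1. In WT ex vivo the Nt5e mean was 87.0 TPM, 1.83 times that of Adora2a, and the ranges of the libraries separated all neighbours in the order except Entpd1 and P2rx4. In cKO ex vivo no neighbours overlapped. In WT stimulated P2rx7 (mean 10.4 TPM) overlapped P2rx4 (9.58 TPM), and Entpd1 (4.94 TPM) overlapped Ada (4.82 TPM), while P2rx4 lay above Entpd1 without overlap, by 1.94 times in the mean. In cKO stimulated only Adora2a and P2rx7 were separated, and the means of P2rx7 (7.17 TPM), Entpd1 (7.0 TPM) and P2rx4 (6.73 TPM) lay within the spread of their libraries. Nt5e and Adora2a thus stood above the other 4 genes in every group, and the order of those 4 was partly open after stimulation.

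The lowest of the 6 genes were set beside genes that Treg should not express. The 1248 olfactory receptor genes had library medians of 0.577 to 1.23 TPM, and their 99th percentile lay between 2.20 and 3.87 TPM. Every library held each of the 6 genes above at least 99.5% of these receptors. By TPM, Ada, at 3.6 to 6.59 TPM and 63 to 123 reads per library, lay closest to that range. Entpd1 in WT stimulated, at 4.20 to 5.75 TPM and 188 to 273 reads, was next. By the share of receptors below, Entpd1 and P2rx4 in cKO stimulated 3, at 99.7%, were lower than Entpd1 in WT stimulated, at 99.8% to 99.9%. The other extreme was Nt5e, with 1818 to 5525 reads per library.

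**Figure D1:**
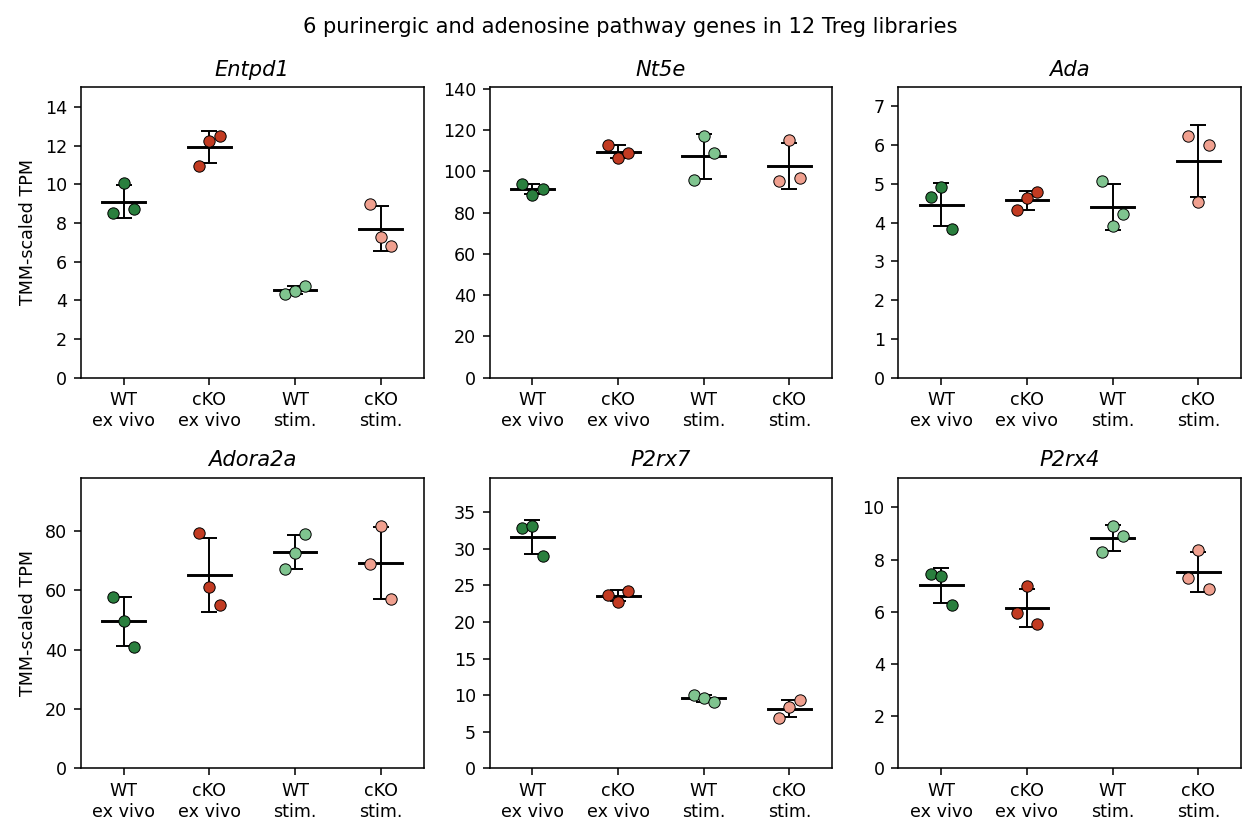
TMM-scaled TPM (vertical axes, linear from 0) of the 6 genes in the 12 libraries, by group; points are libraries, horizontal lines are group means and bars are SD (n = 3). P2rx7 lay between 28.9 and 33.1 in WT ex vivo and between 9.11 and 9.97 in WT stimulated, and for Entpd1 the 3 cKO stimulated libraries (6.81 to 9.01) lay above the 3 WT stimulated libraries (4.34 to 4.75).

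Entpd1 encodes CD39, the enzyme that starts the conversion of extracellular ATP to adenosine. Its deposited values ex vivo were 9.36, 8.16 and 8.19 TPM in the WT libraries and 11.55, 14.4 and 13.9 TPM in the cKO libraries, and every cKO library lay above every WT library. On scaled values the cKO mean was 11.9 ± 0.826 against 9.10 ± 0.862 (SD, n = 3), a change of 0.36 (log2, 95% interval 0.11 to 0.60). That change did not pass the threshold (limma adjusted p 0.0984), and limma-voom on the recovered reads placed it past the threshold, at 0.40 with an adjusted p of 0.0185.

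After stimulation the 3 WT libraries held 4.86, 4.20 and 5.75 TPM of Entpd1, and the 3 cKO libraries 9.50, 6.50 and 4.99 TPM. The groups overlapped in deposited TPM through the cKO stimulated 3 library, which had the largest Gm10800 share of all. On scaled values they did not overlap, with 4.53 ± 0.209 in WT against 7.70 ± 1.16 in cKO (SD, n = 3). Entpd1 was higher in cKO by 0.65 (log2, SE 0.11, limma adjusted p 0.00562), and leaving out any 1 library left it called, at adjusted p-values of 0.00471 to 0.0258. The direction held in all 22 alternatives, but the call was lost at a filter of 1 TPM (0.38, adjusted p 0.377), without a filter (0.37, adjusted p 0.381) and on unscaled TPM (0.40, adjusted p 0.206). Those settings also moved the median of all genes in this comparison, to -0.31, -0.31 and -0.30, so that the distance of Entpd1 from that median changed little.

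Entpd1 was lower in stimulated than in ex vivo cells of both genotypes. The change was -0.87 (log2, SE 0.11, limma adjusted p 0.000169) in WT and -0.58 (SE 0.11, limma adjusted p 0.00196) in cKO, and in each genotype every stimulated library lay below every ex vivo library, in deposited and in scaled TPM. Both calls held in all 22 alternatives, but the change in cKO was -1.08 with a filter of 1 TPM, -1.07 without a filter and -0.87 on unscaled TPM. There the median of all genes for stimulation in cKO stood at -0.52, -0.51 and -0.31. The difference between the 2 changes was 0.29 (95% interval -0.05 to 0.63, limma adjusted p 0.412), or 0.01, 0.03 and -0.18 in those settings, and was not called, so that the fall was not shown to differ between genotypes.

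CD39 is also carried by B cells and myeloid cells, and markers of these, of plasma cells and of NK cells were read beside Entpd1. The summed level of 6 B cell markers was 12.7 to 16.1 TPM in WT and 19.6 to 27.5 TPM in cKO ex vivo, without overlap, and 13.9 to 19.0 TPM and 17.7 to 23.6 TPM after stimulation, with overlap. On scaled values the sums overlapped ex vivo, at 11.6 to 19.5 against 18.6 to 23.4, and were apart after stimulation, at 14.9 to 15.7 in WT against 19.8 to 31.1 in cKO. None of the 6 was at 0 in a group, but all except Cd79b had group means of only 1.07 to 3.93 TPM. These lay close to the range of the olfactory receptors, whose 99th percentile was 2.20 to 3.87 TPM. Of the 6 only Cd79b, a chain of the B cell receptor complex, reached 5 TPM. Its ex vivo means were 5.94 ± 1.53 TPM for WT and 11.9 ± 0.285 TPM for cKO, and its stimulated means 4.08 ± 2.23 and 6.99 ± 1.84 TPM (SD, n = 3). The highest and the lowest group were those of Entpd1. Cd79b was higher in stimulated cKO by 0.96 (log2, SE 0.23, limma adjusted p 0.0283) and fell by 0.68 with stimulation in WT (SE 0.23, limma adjusted p 0.0406). The 3 plasma cell markers found summed to 7.65 to 10.6 scaled TPM in WT and 11.6 to 14.5 in cKO ex vivo. After stimulation they summed to 11.2 to 11.9 and 14.7 to 16.3, without overlap in either condition and with none at 0 in a group. In deposited TPM the stimulated sums overlapped, at 10.5 to 13.9 in WT against 12 to 16.3 in cKO. Sdc1 and Igj had deposited means of 1.98 and 1.35 TPM in WT and 2.27 and 1.69 TPM in cKO ex vivo. Their stimulated means were 3.92 and 2.97 TPM in WT and 3.64 and 2.87 TPM in cKO. Of the 3 only Prdm1, the gene of Blimp-1, which effector Treg also express, passed the filter of 5 TPM in the highest group mean. It was higher in cKO by 0.76 ex vivo (SE 0.13, limma adjusted p 0.00765) and by 0.56 after stimulation (SE 0.13, limma adjusted p 0.0275). The 9 myeloid markers found summed to 12.3 to 33.2 scaled TPM over the 12 libraries, and none reached a group mean of 5 TPM. Nor did any of the 4 NK cell markers, whose scaled sums after stimulation were 8.8 to 10.2 in WT against 12.2 to 14.2 in cKO. The NK cell sums overlapped after stimulation in deposited TPM, and ex vivo on both scales. Foxp3 itself was also higher in stimulated cKO, by 0.96 (log2, SE 0.18, limma adjusted p 0.00847). The part of these genes in the Entpd1 result was not tested.

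Nt5e encodes CD73, the second enzyme of the chain, which forms adenosine. Ex vivo its TPM were 103, 71.7 and 86.0 for WT and 119, 125 and 121 for cKO. After stimulation they were 107, 109.6 and 132 for WT and 100.5, 103 and 71.0 for cKO. The libraries of the ex vivo groups did not overlap, nor did those of WT ex vivo and WT stimulated, in deposited and in scaled TPM. Scaling moved the stimulated groups together, to 107 ± 10.9 in WT and 102.5 ± 11.1 in cKO (SD, n = 3).

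None of the changes of Nt5e was called by limma as reported. They were 0.26 (95% interval 0.04 to 0.47, limma adjusted p 0.183) for genotype ex vivo, -0.07 (-0.28 to 0.15, adjusted p 0.715) for genotype after stimulation, 0.23 (0.01 to 0.44, adjusted p 0.102) for stimulation in WT and -0.10 (-0.31 to 0.12, adjusted p 0.423) for stimulation in cKO. The interaction was -0.32 (-0.63 to -0.02, limma adjusted p 0.314). Their size depended on the filter and the scaling. With a filter of 1 TPM, without a filter and on unscaled TPM the change with stimulation in cKO was -0.66, -0.65 and -0.43. The interaction was -0.63, -0.62 and -0.85 and the genotype change after stimulation -0.37, -0.37 and -0.35, none called. Those settings also moved the median of all genes. It stood at -0.52, -0.51 and -0.31 for stimulation in cKO, and at -0.32, -0.30 and -0.52 for the interaction. For genotype after stimulation it was -0.31, -0.31 and -0.30. Quantile normalization gave Nt5e a called rise with stimulation in both genotypes, of 0.66 (adjusted p 0.000108) in WT and 0.56 (adjusted p 0.000258) in cKO, and background subtraction called the rise in WT (0.25, adjusted p 0.0421).

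The ratio of Nt5e to Entpd1 TPM was also taken per library, a choice made after its values were seen. Per Entpd1 transcript there were 10.1 ± 1.17 Nt5e transcripts ex vivo for WT and 9.24 ± 0.922 for cKO, and after stimulation 23.7 ± 2.10 for WT and 13.5 ± 2.69 for cKO (SD, n = 3). The WT stimulated libraries, at 22.1, 26.1 and 22.9, lay above all others. The exact two-sided permutation p was 0.1, the smallest that 20 arrangements allow, for the stimulation effect in each genotype and for the genotype effect after stimulation, and 0.2 for the genotype effect ex vivo (0.133 and 0.229 adjusted over 8 ratio tests). A ratio within a library does not depend on the scaling.

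Ada encodes adenosine deaminase, which turns adenosine into inosine. It was the lowest of the 6 genes, with ex vivo TPM of 5.12, 3.97 and 3.6 for WT and 4.54, 5.44 and 5.33 for cKO, and stimulated TPM of 5.69, 3.66 and 5.11 for WT and 6.59, 4.03 and 4.40 for cKO. The groups overlapped in every comparison. The largest change was 0.28 (log2, 95% interval -0.06 to 0.62, limma adjusted p 0.292) for genotype after stimulation, and the smallest was -0.02 (-0.35 to 0.32, adjusted p 0.945) for stimulation in WT. Over the 4 comparisons between groups the intervals of Ada reached from -0.35 to 0.62, at 63 to 123 reads per library.

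Adora2a encodes the A2A receptor, which raises cAMP in T cells when adenosine binds. The WT libraries held 63.5, 40.2 and 38.5 TPM ex vivo and 75.4, 67.6 and 95.4 TPM after stimulation, with no overlap. The cKO libraries held 83.3, 71.8 and 61.2 TPM ex vivo and 72.6, 72.7 and 41.9 TPM after stimulation, and overlapped. The scaled mean rose from 49.5 ± 8.36 to 72.9 ± 5.79 in WT, and in cKO it was 65.1 ± 12.5 ex vivo and 69.2 ± 12.2 after stimulation (SD, n = 3).

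The rise of Adora2a in WT was 0.56 (log2, SE 0.17, limma adjusted p 0.0272). When 1 library at a time was left out, the call held in 8 of 12 fits, and was lost without WT ex vivo 2 (0.57, adjusted p 0.0524), WT ex vivo 3 (0.44, adjusted p 0.0911), WT stimulated 2 (0.56, adjusted p 0.0640) and WT stimulated 3 (0.50, adjusted p 0.0892). The sign held in all 22 alternatives and the call in 15, and it was also lost at a filter of 1 TPM (0.31, adjusted p 0.623), without a filter (0.30, adjusted p 0.647) and on unscaled TPM (0.76, adjusted p 0.0674). In cKO the change was 0.09 (95% interval -0.29 to 0.46, limma adjusted p 0.692), but it was called at 0.63 with quantile normalization (adjusted p 0.00386). It was -0.47 with a filter of 1 TPM, -0.46 without a filter and -0.24 on unscaled TPM, none of these called. In these 3 settings the median of all genes for stimulation in cKO stood at -0.52, -0.51 and -0.31. The interaction was -0.47 (-1.0 to 0.06, limma adjusted p 0.393), so that the stimulation effects were not shown to differ. Between genotypes the change was 0.39 (0.01 to 0.76, limma adjusted p 0.260) ex vivo and -0.09 (-0.46 to 0.29, adjusted p 0.787) after stimulation. Without WT ex vivo 3, the female library, the ex vivo change was 0.25.

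P2rx7 encodes a channel that opens at high extracellular ATP and, on mouse T cells, also responds to NAD through ART2 enzymes. In WT its TPM went from 36.2, 26.7 and 27.2 ex vivo to 11.2, 8.93 and 11.02 after stimulation, and in cKO from 24.9, 26.8 and 26.9 to 7.27, 7.42 and 6.81. The stimulated libraries lay far below the ex vivo libraries in both genotypes. The change was -1.63 (log2, SE 0.10, limma adjusted p 1.99e-06) in WT and -1.43 (SE 0.10, limma adjusted p 3.34e-06) in cKO, that is 3.09-fold and 2.69-fold lower. Both calls held in all 22 alternatives, with changes of -1.88 to -1.33 in WT and -1.94 to -1.12 in cKO. The interaction was 0.20 (95% interval -0.11 to 0.51, limma adjusted p 0.547).

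Between genotypes ex vivo the groups of P2rx7 overlapped in deposited TPM, and after scaling they did not, at 31.6 ± 2.34 in WT against 23.6 ± 0.754 in cKO (SD, n = 3). The change was -0.41 (log2, SE 0.10, limma adjusted p 0.0406), just inside the threshold. Only the fits without cKO stimulated 1 and without cKO stimulated 3 kept it among the 12 fits with 1 library left out, and the adjusted p rose to 0.120 without cKO ex vivo 2 and was 0.0520 without WT ex vivo 3. On unscaled TPM the change was -0.18 (adjusted p 0.625), where the median of all genes stood at 0.21. In all, 6 of 22 alternatives kept the call, and it was also lost at a filter of 1 TPM (adjusted p 0.661), without a filter (0.625), with quantile normalization (0.0704) and with a pseudocount of 0.1 (0.0515). After stimulation it was -0.21 (95% interval -0.43 to 0.01, limma adjusted p 0.231), with overlap on scaled values and without overlap on deposited TPM.

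P2rx4 encodes another ATP-gated channel, which responds to lower ATP than P2rx7. In WT its TPM were 8.20, 5.96 and 5.87 ex vivo and 9.28, 8.67 and 10.8 after stimulation, and in cKO they were 6.27, 8.20 and 6.13 ex vivo and 7.70, 7.46 and 5.03 after stimulation. With stimulation only the WT libraries lay above their ex vivo group without overlap. The changes with stimulation were 0.30 (95% interval 0.05 to 0.54, limma adjusted p 0.0629) in WT and 0.25 (0.01 to 0.50, adjusted p 0.0841) in cKO, and those of genotype were -0.17 (-0.41 to 0.08, adjusted p 0.500) ex vivo and -0.21 (-0.45 to 0.03, adjusted p 0.277) after stimulation. None was called by limma as reported. The stimulation change in WT was called in 3 of 22 alternatives, among them limma-voom (0.35) and the replicate number as a block (0.30). That in cKO was called in 4 of 22. The intervals of the stimulation effects did not include a fall of the size of P2rx7. The intervals of the neighbouring genes were thus separate in both genotypes.

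The ratio of P2rx7 to P2rx4 TPM, also chosen after its values were seen, put this difference in 1 value per library. Ex vivo it was 4.42, 4.49 and 4.63 for WT and 3.97, 3.27 and 4.40 for cKO, and after stimulation 1.2, 1.03 and 1.02 for WT and 0.943, 0.994 and 1.35 for cKO. The ex vivo libraries of both genotypes lay above all stimulated libraries. The log2 ratio differed by -2.06 with stimulation in WT and by -1.83 in cKO (exact two-sided permutation p 0.1 in each, the smallest possible with 3 against 3 libraries). Between genotypes it differed by -0.23 ex vivo (exact p 0.1) and by 0.00 after stimulation (exact p 1).

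**Figure D2:**
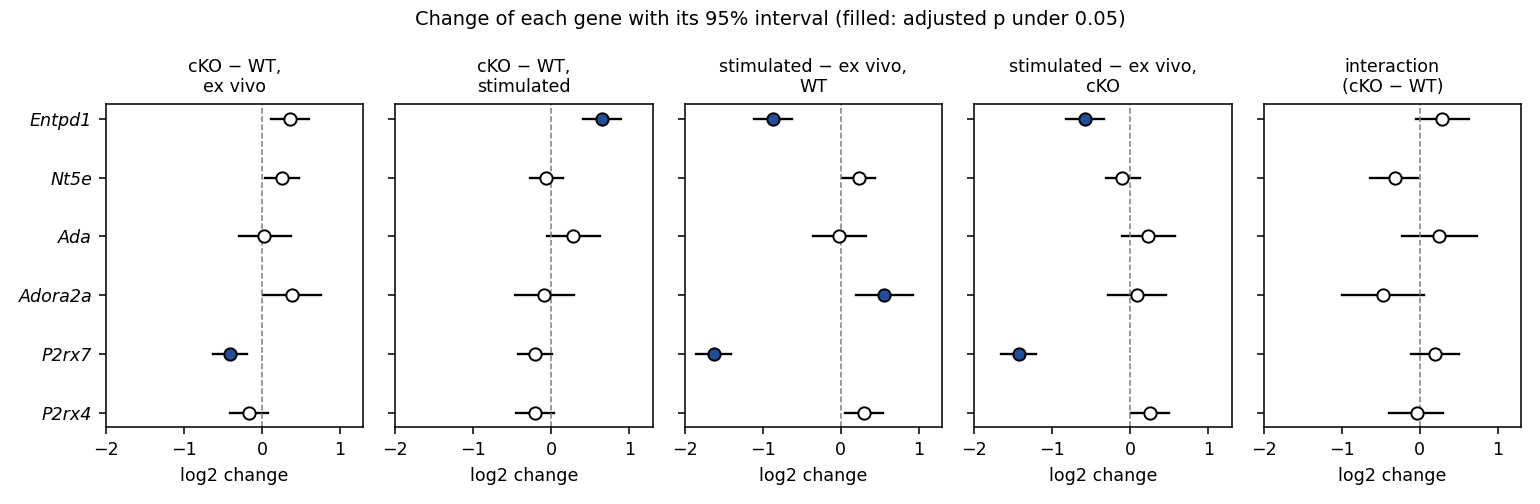
Change of each gene (horizontal axes, log2 of scaled TPM + 1) in the 5 comparisons, with its 95% interval as a line; filled points passed an adjusted p of 0.05. The intervals of P2rx7 lie between -1.85 and -1.21 in the 2 stimulation panels, and no point in the interaction panel is filled.

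The rest of the pathway was read from 85 further symbols in 7 lists, of which 84 were found and 46 reached 5 TPM in a group. Between genotypes 4 of the 46 were called ex vivo (2 higher and 2 lower in cKO) and 5 after stimulation (1 higher and 4 lower). With stimulation 25 of 46 were called in WT (8 higher and 17 lower) and 23 of 46 in cKO (7 higher and 16 lower). These shares are 8.70%, 10.9%, 54.3% and 50%, beside the 5.29%, 6.93%, 32.0% and 43.8% of all genes tested. The median change of the 46 genes was -0.03, -0.04, -0.17 and -0.20 (log2), beside -0.01, -0.03, 0.00 and -0.01. The interaction was called by limma for 0 of 46, with 10 at an unadjusted p under 0.05, while limma-voom on the recovered reads called 4 (Entpd4, Slc17a9, Pde2a and Crem).

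Among 16 other ectonucleotidases and NAD ectoenzymes, 7 were tested. Entpd4, a nucleoside diphosphatase of internal membranes, was higher in stimulated cKO than in stimulated WT by 0.91 (log2, SE 0.13, limma adjusted p 0.00252), with means of 16.8 against 10.3 TPM, and rose with stimulation in cKO by 0.57 (limma adjusted p 0.00616). Entpd5 fell with stimulation by 0.81 in WT and 0.79 in cKO (limma adjusted p 0.000288 and 0.000301). Cd38, which consumes NAD, fell by 0.54 and 0.90 (limma adjusted p 0.00491 and 0.000161). Entpd7 rose in WT by 0.47 (limma adjusted p 0.0388). Art2a-ps, the pseudogene beside the NAD-dependent ART2 enzyme gene Art2b, was higher in cKO ex vivo by 0.81 (SE 0.20, limma adjusted p 0.0438), at 11.2 against 5.07 TPM, and reads of such near copies may be split between them. Art2b itself, at 18.7 to 24.5 TPM, was called in no comparison.

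Of the genes that clear, carry or salvage adenosine and nucleotides, 27 of 28 were found and 17 tested. With stimulation 10 fell and 1 rose in WT, and 7 fell and 2 rose in cKO, against 19.3% lower and 12.7% higher of all genes in WT and 26.5% and 17.3% in cKO. The riser in WT was Adk, adenosine kinase, which returns adenosine to AMP. It rose from 18.4 to 57.8 TPM in WT (1.42, SE 0.14, limma adjusted p 2.96e-05) and from 17.8 to 27.8 TPM in cKO (0.91, SE 0.14, limma adjusted p 0.000436), and stood lower in stimulated cKO than in stimulated WT by 0.77 (limma adjusted p 0.00734).

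Both nucleoside transporters that were called fell with stimulation. The equilibrative transporter Slc29a1 fell by 0.53 in WT and 0.68 in cKO (limma adjusted p 0.00163 and 0.000293). The concentrative transporter Slc28a2 fell by 1.11 and 1.21 (limma adjusted p 5.12e-05 and 2.20e-05), and was also lower in cKO than in WT, by 0.52 ex vivo (limma adjusted p 0.0281) and 0.62 after stimulation (limma adjusted p 0.00984). Dpp4, the CD26 protein that binds adenosine deaminase in other species, fell by 0.44 and 0.52 (limma adjusted p 0.000682 and 0.000179). The salvage enzyme gene Aprt fell by 0.86 and 0.69 (limma adjusted p 0.000609 and 0.00197). Nt5c3, a cytosolic nucleotidase, fell by 0.70 and 0.93 (limma adjusted p 0.000342 and 4.64e-05) and stood lower in stimulated cKO than in stimulated WT by 0.42 (limma adjusted p 0.0279).

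None of the 3 other adenosine receptors and none of the 5 other P2X receptors reached a group mean of 5 TPM. Adora2b, the low-affinity receptor, had group means of 1.09 to 3.87 TPM, and the highest mean among the other P2X genes was 3.86 TPM, for P2rx5 in cKO stimulated, so that these genes lay close to the range of the olfactory receptors. Among 8 P2Y genes 2 were tested. P2ry10, a receptor for lysophospholipids despite its name, was the most abundant with means of 187 TPM (WT) and 184 TPM (cKO) ex vivo and 211 and 232 TPM after stimulation, and rose with stimulation in cKO by 0.62 (limma adjusted p 0.00666).

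ATP release and the cAMP pathway below the A2A receptor were the last lists. Slc17a9, the vesicular nucleotide transporter, was lower in cKO ex vivo by 0.62 (SE 0.09, limma adjusted p 0.00366), at 16.8 against 22.7 TPM, and fell with stimulation by 1.24 in WT and 0.65 in cKO (limma adjusted p 5.44e-06 and 0.000263). The pannexin channel gene Panx1 fell in cKO by 0.36 (limma adjusted p 0.0185). Of 20 cAMP genes 17 were tested, and with stimulation 6 rose and 4 fell in WT, and 3 rose and 5 fell in cKO, beside the same shares of all genes (12.7% higher and 19.3% lower in WT, 17.3% and 26.5% in cKO).

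The cAMP genes with the smallest adjusted p fell on both sides. Crem, a cAMP-responsive transcription factor, rose by 1.02 in WT and 1.66 in cKO (limma adjusted p 9.16e-05 and 3.46e-06). Adcy7, an adenylyl cyclase, fell by 0.91 and 1.08 (limma adjusted p 3.67e-05 and 9.17e-06), and Prkacb, a catalytic subunit of protein kinase A, fell by 0.77 and 0.97 (limma adjusted p 2.67e-05 and 4.50e-06) and stood lower in stimulated cKO than in stimulated WT by 0.38 (limma adjusted p 0.0104). The phosphodiesterase Pde8a rose by 0.98 and 0.62 (limma adjusted p 6.87e-05 and 0.00114), whereas Pde4b fell by 0.57 and 1.02 (limma adjusted p 0.00463 and 9.60e-05). Pde2a, a phosphodiesterase that breaks down cAMP, was higher in cKO ex vivo by 0.67 (SE 0.12, limma adjusted p 0.00935), at 39.9 against 21.1 TPM.

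**Figure D3:**
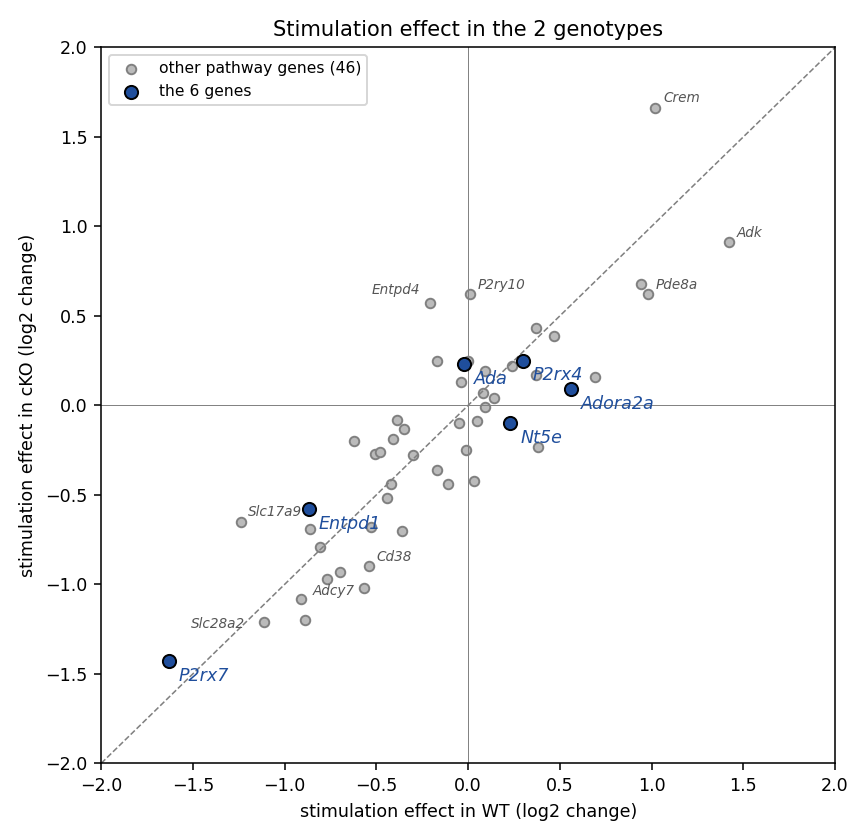
Stimulation effect in WT (horizontal axis) and in cKO (vertical axis), both in log2 of scaled TPM + 1, for the 6 genes (blue) and the 46 other pathway genes tested (grey); the dashed line marks equal changes. P2rx7, at -1.63 and -1.43, lies below every other gene in the plot on both axes, and Crem (1.02 and 1.66) and Adk (1.42 and 0.91) lie at the upper end.

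For each of the 6 genes the 3 genes with the most similar profile over the 12 libraries were sought by Pearson's r of the log2 values, over all genes tested. For P2rx7 these were Pitpnm2 (r 0.989), Dzip1 (0.989) and Dnahc8 (0.988), for Entpd1 Amigo3 (0.963), Ifng (0.960) and Adam19 (0.960), and for Adora2a Mfap3 (0.940), Itpr1 (0.940) and Wnk1 (0.931). Nt5e was nearest to Tnfsf8 (0.899), Nfkb2 (0.898) and Fam40a (0.884), P2rx4 to Atrn (0.927), Tmem120b (0.918) and Ing4 (0.915), and Ada to Hirip3 (0.920), Gm14138 (0.898) and U6 (0.894). No other member of the 6 was among them, and between members r ran from -0.82 for Entpd1 and P2rx4 to 0.72 for Nt5e and Adora2a. The 12 points share 4 groups, so that these values describe the group pattern more than the libraries.

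**Figure D4:**
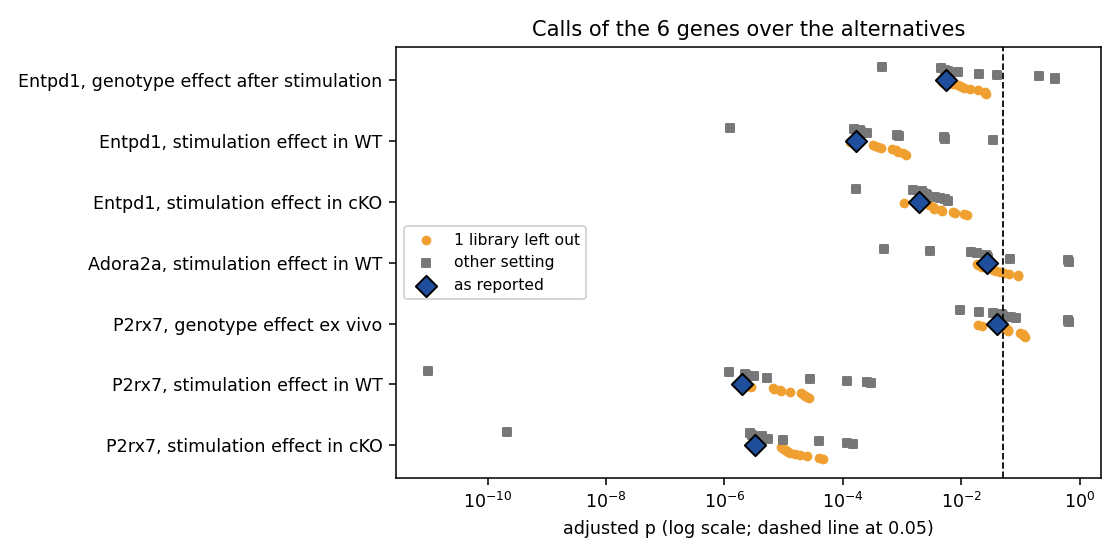
Adjusted p (horizontal axis, log scale) of the 7 calls of the 6 genes as reported (diamonds), with 1 library left out (orange circles) and under the 10 other settings (grey squares); the dashed line is 0.05. The 4 stimulation calls of Entpd1 and P2rx7 stay left of the line throughout, the Entpd1 genotype call crosses it in 3 other settings, and the Adora2a and P2rx7 genotype points lie on both sides.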

How the data were processed

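The 12 RNA-seq libraries (4 groups of 3) came from individual mice, but the sources used here do not say whether an ex vivo and a stimulated library share a mouse, nor the sex of these mice. By its female pattern, the WT ex vivo 3 library shared a mouse with no stimulated library, as these held 14.7 to 35.2 TPM of Ddx3y. Per the labels and the study's methods, the authors depleted ribosomal RNA, made stranded libraries, sequenced 51 bp paired ends, aligned them to mm9 with STAR 2.6.0c and counted reads on Ensembl v67 exons with HTSeq 0.6.1. The deposited table gives a signal per gene and library, TPM (transcript abundance per length, scaled to a fixed total), and a log2 value, for which the authors first added the value of 1 read. Dividing the TPM by that addition gave back whole reads for 99.9977% of the values (within 0.01 of a whole number). The authors' second table, with their own fold changes, p-values and FDR, was not used.

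The 13318 genes that reached 5 TPM on average in any group were kept. TMM scaling (trimmed mean of M-values, trimming 30% on M and 5% on A) was followed by log2 with a pseudocount of 1. A single limma 3.58.1 model (R 4.3.3) covered the 12 libraries, with group as its term, two-sided, with Benjamini-Hochberg adjustment within each of 5 comparisons. The study used a count model. Here the deposited unit, TPM, set limma as the main test, with limma-voom on the recovered reads as an alternative. The log2(TPM + 1) scale understates changes of low genes. The 5 TPM filter was chosen because a filter of 1 TPM lets in olfactory receptor genes, which Treg should not express, and shifts the scaling. Group means and SDs are of the deposited or scaled TPM, as named. Single ratios were compared by exact permutation, which cannot go below 0.1 with 3 against 3 libraries. The fit was tried on simulated counts with the same spread for all genes, for the genotype comparison ex vivo only. That trial does not bear on how these libraries vary. Python 3.11.15 read the files.

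The genes and lists were chosen with earlier results of these data known, and the ratios after their values were seen. Other pathway genes were named when called, at most the 4 with the smallest adjusted p per list and comparison. Alternatives were the filter, pseudocounts of 0.1 and 5, no scaling, median of ratios scaling, quantile normalization, the replicate number as a block, limma-voom on the recovered reads, leaving out each library, and, chosen after seeing the data, subtraction of the olfactory receptor background. Replicate numbers were checked for pairing, and the check showed no pairing of ex vivo with stimulated libraries but cannot exclude it. The sources used here give no batch or date. Reads carried no molecular identifiers, and replicates differed by 4.51 to 48.2 times counting error (chi-square per degree of freedom).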

Additional observations from a re-analysis of the deposited data

How the results depend on the processing

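Over 22 alternatives, the 30 changes of the 6 genes kept their direction and their side of the threshold in 583 of 660 fits, lost a call in 26, gained one in 11 and changed sign in 40, of which 1 was called. The stimulation calls of P2rx7 and Entpd1 held in every fit. The median of all genes stood at -0.31, -0.22, -0.52 and -0.32 with a 1 TPM filter for genotype after stimulation, stimulation in WT, stimulation in cKO and the interaction, and at 0.21, -0.30, 0.18, -0.31 and -0.52 on unscaled TPM for genotype ex vivo and the same 4. The shares of calls that were higher went from 68.5%, 47.6%, 39.6%, 39.5% and 40.8% to 77.2%, 50%, 17.1% and 12.4% (no interaction call) at 1 TPM, 81.8%, 44.1%, 15.6% and 12% without a filter, and 95.2%, 22.5%, 60.5%, 11.9% and 8.96% on unscaled TPM, and quantile normalization gave 51.8% for stimulation in WT. Ada had 63 to 123 reads per library.

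With a filter of 1 TPM, the change of Entpd1 after stimulation was 0.38, that of P2rx7 ex vivo -0.40 and that of Adora2a with stimulation in WT 0.31, none called. Stimulation changes became -0.02 for Nt5e in WT, and -0.47, -0.24 and -0.23 for Adora2a, Ada and P2rx4 in cKO, and interactions -0.02 for Ada and -0.07 for P2rx7. Of the 6 genes 0 were called in either genotype comparison, and of all genes 57 ex vivo, 52 after stimulation, 1731 with stimulation in WT and 0 for the interaction, against 704, 923, 4262 and 147. Without a filter the same 9 values were 0.37, -0.42, 0.30, -0.03, -0.46, -0.23, -0.23, -0.00 and -0.06, and the counts 0 and 0 of the 6 genes and 44, 59, 1676 and 0 of all genes. On unscaled TPM the calls of Entpd1 after stimulation (0.40), P2rx7 ex vivo (-0.18) and Adora2a with stimulation in WT (0.76) were lost. Signs changed for the interactions of Entpd1 (-0.18), Ada (-0.19) and P2rx7 (-0.29), for stimulation of Ada in WT (0.15), for stimulation of Adora2a (-0.24), Ada (-0.04) and P2rx4 (-0.03) in cKO and for P2rx4 ex vivo (0.04). There 0 of the 6 genes were called for genotype ex vivo and 0 after stimulation, and 273, 306, 1943 and 67 of all genes.

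Quantile normalization called stimulation changes of Nt5e in WT (0.66) and cKO (0.56, a change of sign) and of Adora2a in cKO (0.63), 4 of the 6 genes in cKO, but not P2rx7 ex vivo (-0.39, 0 of the 6 genes). It changed the sign of Nt5e (0.18) and Adora2a (0.11) between genotypes after stimulation, of Ada ex vivo (-0.01) and of Ada (-0.13) and P2rx4 (-0.00) with stimulation in cKO, and called 1579 genes after stimulation and 392 for the interaction. Median of ratios scaling called P2rx4 with stimulation in WT (0.32) and cKO (0.31) and put Ada in WT at 0.01. Background subtraction called Nt5e with stimulation in WT (0.25) and 262 genes for the interaction. A pseudocount of 0.1 lost P2rx7 ex vivo (-0.42, 0 of the 6 genes). limma-voom on the recovered reads also called Entpd1 ex vivo (0.40, 2 of the 6 genes) and P2rx4 with stimulation in WT (0.35), and called 1203 genes ex vivo, 1247 after stimulation, 4872 with stimulation in WT, 6239 in cKO and 395 for the interaction. The cause of these differences was not tested.

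Same-numbered libraries deviated together in 2 of 18 pairs (r over 0.1, range -0.208 to 0.257). Both were pairs of a WT and a cKO ex vivo library, at 0.149 for number 1 and 0.257 for number 2, with 0.078 for number 3. With 3 libraries per group, a low r cannot exclude pairing, so that these values do not settle whether the numbers pair the samples. With the replicate block, P2rx7 ex vivo was not called (-0.41, 0 of the 6 genes) and P2rx4 with stimulation in WT was (0.30), with 65 interaction calls and 516 ex vivo.

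Leaving out each library in turn gave a range of -0.15 to 0.00 for Nt5e and -0.21 to 0.07 for Adora2a between genotypes after stimulation, 0.44 to 0.67 for Adora2a with stimulation in WT and -0.04 to 0.26 in cKO, -0.06 to 0.09 for Ada ex vivo and -0.10 to 0.05 with stimulation in WT, -0.47 to -0.38 for P2rx7 ex vivo, 0.18 to 0.35 for P2rx4 with stimulation in cKO (called without WT ex vivo 3, cKO ex vivo 2 or cKO stimulated 3) and -0.11 to 0.06 for its interaction. Of the 6 genes 0 to 1 were called ex vivo. Of all genes 331 to 740 were called ex vivo (fewest without cKO ex vivo 3), 424 to 990 after stimulation (fewest without WT stimulated 2) and 56 to 208 for the interaction.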
